A study of Homo sapiens with 9 samples.

Results

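Interferon-stimulated genes and the genes of class I antigen presentation were followed in HEK293T cells made to overexpress the kinase PLK2 or a form of it with a substitution in the kinase domain. A list of 45 genes was taken by symbol. It covers interferon response factors, antiviral effectors and class I presentation genes, and 44 of the 45 have a row among the 17083 genes of the deposited table. OAS1 was not analysed here. The libraries came from HEK293T cells overexpressing PLK2-FLAG (PLK2), from cells overexpressing PLK2(D223N)-FLAG (PLK2(D223N)) and from cells that received the FLAG vector without an insert (Vector), with 3 libraries in each group. All cells are labelled wild type and epithelial. HEK293T derives from human embryonic kidney and was made to express large T antigen of SV40. The study's design text calls the libraries of a group biological replicates, so the p-values measure the spread between such cultures of 1 line. The sources used here do not give the plasmid promoter or the time between transfection and harvest.

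Interferons bind receptors whose kinases phosphorylate STAT proteins, among them STAT2. These then join IRF9 and drive genes that carry an interferon-stimulated response element (ISRE) near their start. Interferons are themselves made when sensors detect foreign RNA or DNA, for example a transfected plasmid, and signal through IRF3 and IRF7. The products of the target genes block viral entry, translation and replication, tag proteins with ISG15, or load peptides on class I molecules for display to T cells. HEK293T cells are often used to rebuild this pathway piece by piece, because parts of its DNA-sensing arm are scarce in the line.

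The promoters of the list show the element through which the pathway acts. The ISRE was searched as GAAA, any 2 bases and GAAA again, or as TTTC, any 2 bases and TTTC when read on the other strand, in RefSeq windows of GRCh38.p14 from 250 bases before to 50 bases after a gene's start. Windows were at hand for 35 of the 44 genes, and 25 of these 35 (71.4%) held the letters. Of the 13668 genes of the whole table with a window, 553 (4.05%) held them. Counted by window, since some genes have several starts, the letters stood in 29 of 46 windows of the list (63%) and in 594 of 19655 windows over all genes (3.02%). These are matches of letters and not measured binding sites. The 6 stretches below cover the range of expression found here, from an abundant gene to one with hardly a read. Each is written 5′ to 3′ on the gene's own strand, with the ISRE letters in capitals.
B2M (chr15:44711343-44711418, plus strand): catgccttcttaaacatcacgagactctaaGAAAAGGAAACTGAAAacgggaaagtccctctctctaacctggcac
IFITM1 (chr11:313970-314043, plus strand): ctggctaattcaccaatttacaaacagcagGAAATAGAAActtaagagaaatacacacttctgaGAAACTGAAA
IFIT1 (chr10:89392477-89392559, plus strand): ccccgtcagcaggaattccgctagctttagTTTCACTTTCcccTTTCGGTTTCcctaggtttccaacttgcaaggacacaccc
ISG15 (chr1:1013354-1013429, plus strand): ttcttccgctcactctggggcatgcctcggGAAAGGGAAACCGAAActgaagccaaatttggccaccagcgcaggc
DTX3L (chr3:122564302-122564341, plus strand): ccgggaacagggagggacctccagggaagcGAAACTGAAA
BST2 (chr19:17405715-17405790, minus strand): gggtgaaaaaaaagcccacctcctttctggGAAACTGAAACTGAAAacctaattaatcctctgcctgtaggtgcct

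In B2M, ISG15 and BST2 the stretch holds 2 matches that overlap by a shared GAAA, and in IFIT1 and IFITM1 it holds 2 separate ones. The first match begins 144 bases before the start of B2M, 113 before that of ISG15 and 130 before that of BST2. It begins 6 bases before the start of DTX3L, which encodes a ubiquitin ligase, and the same 10 bases lie in the window of its partner PARP9 on the other strand. That match, at chr3:122564332-122564341, was the only one that windows of different genes of the list shared. The gamma-activated site, which serves the response to interferon gamma, was searched only in the form TTCCNGGAA, which reads alike on both strands. These letters stood in 3 of the 35 genes (8.57%), against 1.45% of all genes with a window. Other forms of the site were not counted. Letters of an NF-κB site, GGGA, any 2 bases and TTCC, or GGAA, any 2 bases and TCCC on the other strand, stood in 4 of the 35 (11.4%), against 2.14%.

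The libraries held 14288165 to 16510186 estimated counts. PLK2 itself was at 23744 ± 2384 CPM in PLK2 libraries, 12358 ± 1650 CPM in PLK2(D223N) libraries and 3.42 ± 0.64 CPM in Vector libraries (SD, n = 3 each), so transgene RNA was lower in PLK2(D223N) libraries than in PLK2 libraries. CPM are read counts scaled to a common library size with TMM factors. The Vector libraries stood further apart than those of the other groups. The chi-square per gene was 17.2 between Vector replicates 1 and 2 and 10.5 between replicates 1 and 3, against 2.64 between replicates 2 and 3 and 1.61 to 2.74 within the other groups. Vector replicate 1 gave the highest or the lowest of the 9 values for 62.3% of all tested genes and for 18 of the 35 tested genes of the list (51.4%), the next highest share in the list being 28.6%. Of the 9 markers fixed for the HEK293 line, 6 reached 1 TPM, and VIM, KRT18 and KRT8 averaged 589, 69.6 and 23.7 TPM. The neuronal and renal markers NEFM, PAX2 and LHX1 stayed under 1 TPM, while another neuronal marker, NEFL, averaged 1.05 TPM. Markers of microglia summed to at most 0.44, 0.37 and 0.73 TPM in any PLK2, PLK2(D223N) and Vector library, with 4 of the 7 listed genes present in the table. Those of leukocytes, endothelium and fibroblasts summed to at most 3.88, 0.31 and 4.51 TPM in any library.

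Before any comparison, the list was expressed over a wide range, from abundant class I components to effectors with hardly a read. TPM, which corrects for transcript length and so allows genes to be set side by side, is taken as the mean over the 9 libraries unless a library is named. Of the 44 genes, 18 (40.9%) reached 10 TPM, 10 (22.7%) lay from 1 to under 10 TPM and 16 (36.4%) lay under 1 TPM. Over the whole table these shares were 49.7%, 20.5% and 29.8%. The median of the list was 6.37 TPM and that of all genes 9.78 TPM. The 6 highest genes, B2M, HLA-C, ADAR, IFITM1, IFITM2 and HLA-B, held 76.5% of the list's summed TPM.

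**Figure D1:**
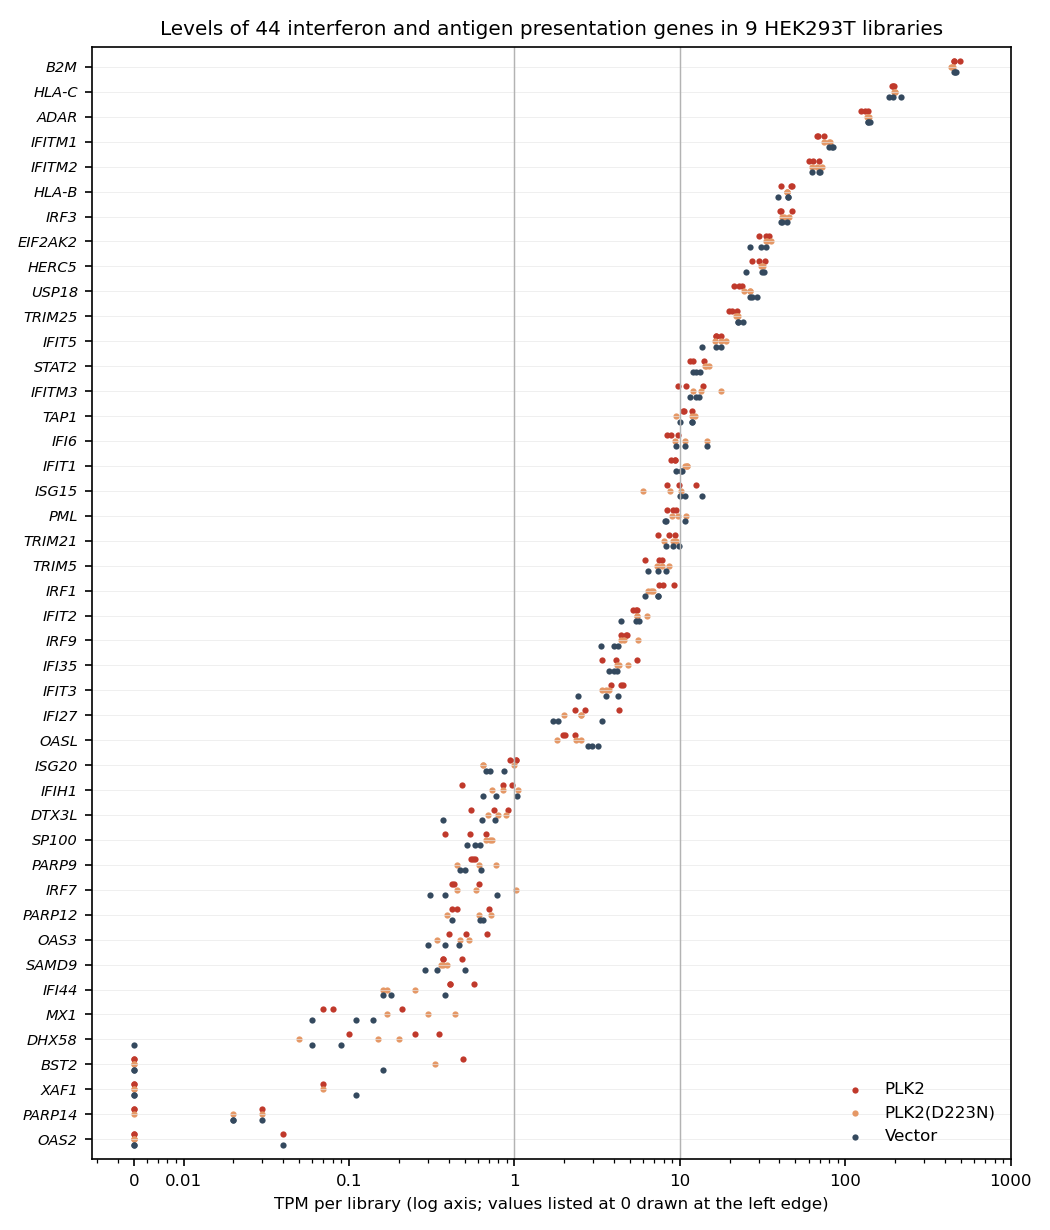
Level of each of the 44 genes in each of the 9 libraries, in TPM on a log axis with values of 0 at the left edge, ordered from B2M at 457 TPM to OAS2 at 0.00889 TPM. The 3 groups lie on top of each other for most genes, and the spread between libraries widens below 1 TPM.

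B2M and HLA-C, of class I presentation, were the highest genes of the list. B2M, the invariant light chain of every class I molecule, averaged 457 TPM. HLA-C and HLA-B, heavy chains encoded on chromosome 6, averaged 197 and 44.3 TPM, and TAP1, a subunit of the transporter that carries peptides into the endoplasmic reticulum, 11.1 TPM. HLA genes are close in sequence and the annotated spans of HLA-B and HLA-C overlap, so their estimated counts can be split between them with error. Among the IFITM proteins, restriction factors of the membrane, IFITM1 was at 77.1, IFITM2 at 66.6 and IFITM3 at 12.8 TPM. These 3 genes are near copies on chromosome 11, and the annotated spans of IFITM1 and IFITM2 overlap, so the same caution applies.

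The response factors were present in unequal amounts. IRF3, which is made constitutively and switches on interferon genes after sensing, averaged 43 TPM. STAT2 and IRF9, which act together at the ISRE, averaged 13.2 and 4.46 TPM, and IRF1, itself an interferon target, 7.28 TPM. IRF7, which amplifies interferon production once induced, averaged 0.554 TPM, with 4 to 10 counts in a library.

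The genes of proteins that bind double-stranded RNA covered a wide range of levels. ADAR, which edits adenosine to inosine in such RNA, averaged 136 TPM, and EIF2AK2 (PKR), which halts translation, 32.4 TPM. The deposited values are per gene and do not separate the constitutive from the interferon-inducible form of ADAR. IFIH1 (MDA5), a sensor of long RNA, averaged 0.821 TPM and DHX58 (LGP2), its regulator, 0.139 TPM. The sensor RIG-I, outside the list and entered under its older symbol DDX58, was at 3.84 TPM. In the oligoadenylate synthetase family, whose products activate RNase L, OAS3 averaged 0.452 TPM and OAS2 0.00889 TPM, while the related OASL, which lacks that activity, averaged 2.44 TPM.

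The 3 genes of the ISG15 system in the list lay between 10 and 30.4 TPM. Outside the list, UBA7 and UBE2L6 of the same system averaged 0.188 and 2.71 TPM. HERC5, the main ligase that attaches ISG15, averaged 30.4 TPM and USP18, the protease that removes ISG15 and also restrains the interferon receptor, 25.4 TPM. ISG15 itself, the ubiquitin-like tag, averaged 10 TPM. The IFIT proteins, which bind foreign RNA, ran from IFIT5 at 16.9 TPM and IFIT1 at 10.1 TPM to IFIT2 at 5.46 TPM and IFIT3 at 3.75 TPM. TRIM25, a ubiquitin ligase that acts on RIG-I, averaged 22.1 TPM, PML, the scaffold of nuclear bodies, 9.28 TPM, TRIM21, an intracellular antibody receptor, 8.82 TPM, and TRIM5, a capsid-binding factor, 7.47 TPM. SP100, a partner of PML in nuclear bodies, averaged 0.602 TPM.

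Several classical effectors that interferon induces strongly were low here. MX1, a dynamin-like GTPase that blocks several viruses, averaged 0.176 TPM and IFI44 0.299 TPM. BST2 (tetherin), which holds budding virus at the cell surface, averaged 0.109 TPM, and XAF1, a pro-apoptotic factor, 0.0278 TPM. IFI6 and IFI35 were higher at 10.8 and 4.24 TPM, and IFI27 stood at 2.59 TPM. The exonuclease ISG20 averaged 0.838 TPM and SAMD9, which restricts poxviruses, 0.386 TPM. The ADP-ribosyltransferases PARP9, PARP12 and PARP14 averaged 0.569, 0.553 and 0.0167 TPM, and DTX3L, which works in a pair with PARP9, 0.708 TPM.

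The ISRE letters did not go with a high level. The 25 genes with the letters ran from 0.0167 TPM in PARP14 to 457 TPM in B2M with a median of 3.75 TPM, and 11 of them (44%) lay under 1 TPM. The 10 genes with a window but without the letters (ADAR, HLA-B, HLA-C, IFI35, IRF1, IRF9, SP100, STAT2, TRIM25 and XAF1) had a median of 10.3 TPM. Over all genes of the table with a window the medians were 6.02 TPM in the 553 genes with the letters and 12.1 TPM in the 13115 without. BST2 and B2M carry the same kind of overlapping pair, printed above, and lay at 0.109 and 457 TPM. These levels are given as a description, since no library in the series was treated with interferon.

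**Figure D2:**
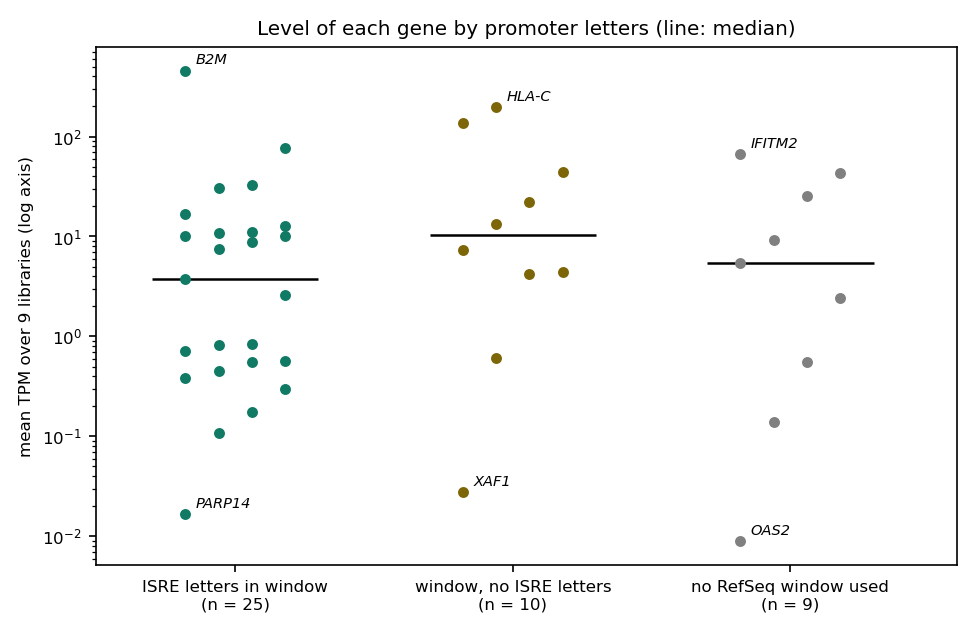
Mean TPM over 9 libraries, on a log axis, of the 25 genes with ISRE letters in a promoter window, the 10 with a window but no letters and the 9 with no window used here; lines mark medians. The genes with the letters spread from 0.0167 to 457 TPM, with a median of 3.75 TPM against 10.3 TPM in those without.

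The summed level of the list differed little between the 3 groups. It was 1266 ± 8.45 TPM in PLK2 libraries, 1280 ± 6.11 TPM in PLK2(D223N) libraries and 1289 ± 12.7 TPM in Vector libraries (SD, n = 3 each). The sums ran from 1260 to 1276 TPM in PLK2, from 1274 to 1286 TPM in PLK2(D223N) and from 1279 to 1303 TPM in Vector libraries. Every PLK2 library lay below every Vector library on this scale, where the transgene itself held 15670 to 18396 TPM in PLK2 libraries, 7932 to 10408 in PLK2(D223N) libraries and 2.03 to 3.01 in Vector libraries. With TPM rescaled after leaving out PLK2 the sums were 1288 ± 7.46, 1292 ± 7.37 and 1289 ± 12.7 TPM in PLK2, PLK2(D223N) and Vector libraries, and the groups overlapped. In bulk RNA, fewer cells that express a gene and less of its RNA per cell cannot be told apart.

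PLK2 vs Vector compares the list between cells overexpressing PLK2 and cells with the vector without an insert. None of the 35 genes with enough counts to test passed the test (edgeR quasi-likelihood, Benjamini-Hochberg over 12924 genes, two-sided, adjusted p below 0.05), against 66 of 12924 genes overall (0.511%). DESeq2 called none of them either, against 143 of all genes it tested (1.11%). At an unadjusted p below 0.05 there were 5 of 35 (14.3%), IRF1 higher and USP18, OASL, IFITM1 and TRIM25 lower, against 16.4% of all tested genes. The groups did not overlap in 8 of 35 (22.9%), against 20.1%. The log2 fold changes ran from -0.51 to 0.46 with a median of -0.01, which for all genes was -0.00, and 17 of 35 were above 0. The 95% interval of the log2 fold change lay within 1 of 0 in either direction for 34 of the 35 genes and within 0.5 for 20.

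USP18 (chr22:18149899-18177397, plus strand, GENCODE release 29 on GRCh38, as for the genes below) had the smallest p of the list in this comparison. It stood at 21.1, 22.4 and 19.2 CPM in PLK2 libraries, at 23.6, 21.6 and 23.8 CPM in PLK2(D223N) libraries and at 26.4, 25.7 and 24.3 CPM in Vector libraries. Every PLK2 and every PLK2(D223N) library lay below every Vector library, and PLK2 and PLK2(D223N) overlapped. The log2 fold change of PLK2 over Vector was -0.28 (SE 0.08, 95% interval -0.44 to -0.12, edgeR unadjusted p = 0.00207, adjusted p = 0.113). Without Vector replicate 2 it was again -0.28 and USP18 was called (edgeR adjusted p = 0.0365), in a fit in which 1656 of 13028 genes (12.7%) were called. Without Vector replicate 1, 363 of 13020 genes (2.79%) and no gene of the list were called. Without any 1 of the other 7 libraries 13 to 48 genes and none of the list were called.

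OASL (chr12:121019111-121039242, minus strand), which enhances RIG-I signalling, had the lowest fold change. It stood at 1.71, 2.37 and 1.82 CPM in PLK2 libraries, at 2.42, 1.54 and 2.27 CPM in PLK2(D223N) libraries and at 2.79, 3.05 and 2.58 CPM in Vector libraries. The Vector libraries lay above the other 6. The log2 fold changes over Vector were -0.51 (SE 0.20, edgeR adjusted p = 0.241) for PLK2 and -0.43 (SE 0.20, edgeR adjusted p = 0.574) for PLK2(D223N). Without PLK2(D223N) replicate 2 the value for PLK2(D223N) was -0.25. The fold changes rest on 93, 101 and 133 counts summed over the PLK2, PLK2(D223N) and Vector libraries.

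IFITM1 (chr11:313506-315272, plus strand), which blocks viral fusion at the cell surface, stood at 14.8, 13.7 and 13.3 CPM in PLK2 libraries, at 14.5, 15.5 and 15.4 CPM in PLK2(D223N) libraries and at 16.2, 15.5 and 16.2 CPM in Vector libraries. PLK2 lay below Vector without overlap, with a log2 fold change of -0.20 (SE 0.08, edgeR adjusted p = 0.241), and the near copies IFITM2 and IFITM3 gave -0.06 and -0.07. IFITM2 stood at 24.9, 24.0 and 26.6 CPM in PLK2 libraries, at 23.8, 27.2 and 25.5 CPM in PLK2(D223N) libraries and at 28.5, 25.8 and 24.3 CPM in Vector libraries. All groups of IFITM2 overlapped.

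TRIM25 (chr17:56836387-56914080, minus strand) stood at 63.6, 62.4 and 67.0 CPM in PLK2 libraries, at 65.3, 65.2 and 67.5 CPM in PLK2(D223N) libraries and at 77.6, 67.7 and 69.0 CPM in Vector libraries. Its highest value came from Vector replicate 1, and the lowest Vector value lay within 1 CPM of the highest of the other 6. The log2 fold change of PLK2 over Vector was -0.15 (SE 0.06, edgeR adjusted p = 0.251), and -0.09 without Vector replicate 1. ADAR also lay below Vector in both other groups, at 461, 439 and 469 CPM in PLK2 libraries, 455, 464 and 472 CPM in PLK2(D223N) libraries and 498, 485 and 480 CPM in Vector libraries. Its log2 fold change of PLK2 over Vector was -0.09, with a 95% interval of -0.20 to 0.01 (edgeR adjusted p = 0.328).

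The factors of the pathway itself gave small values. IRF9 stood at 3.36, 3.65 and 3.32 CPM in PLK2 libraries, at 3.85, 3.27 and 3.20 CPM in PLK2(D223N) libraries and at 2.62, 2.91 and 3.13 CPM in Vector libraries. Both PLK2 and PLK2(D223N) lay above Vector without overlap, each with a log2 fold change of 0.25 (SE 0.15) and edgeR adjusted p-values of 0.406 and 0.604. IRF3, STAT2, EIF2AK2 and HERC5 gave log2 fold changes of PLK2 over Vector between -0.01 and 0.08. The largest positive one in the list was that of OAS3, 0.46 (SE 0.26, edgeR adjusted p = 0.374), with 1.77, 2.44 and 1.38 CPM in PLK2 libraries and 1.66, 1.32 and 1.04 CPM in Vector libraries, which overlapped.

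**Figure D3:**
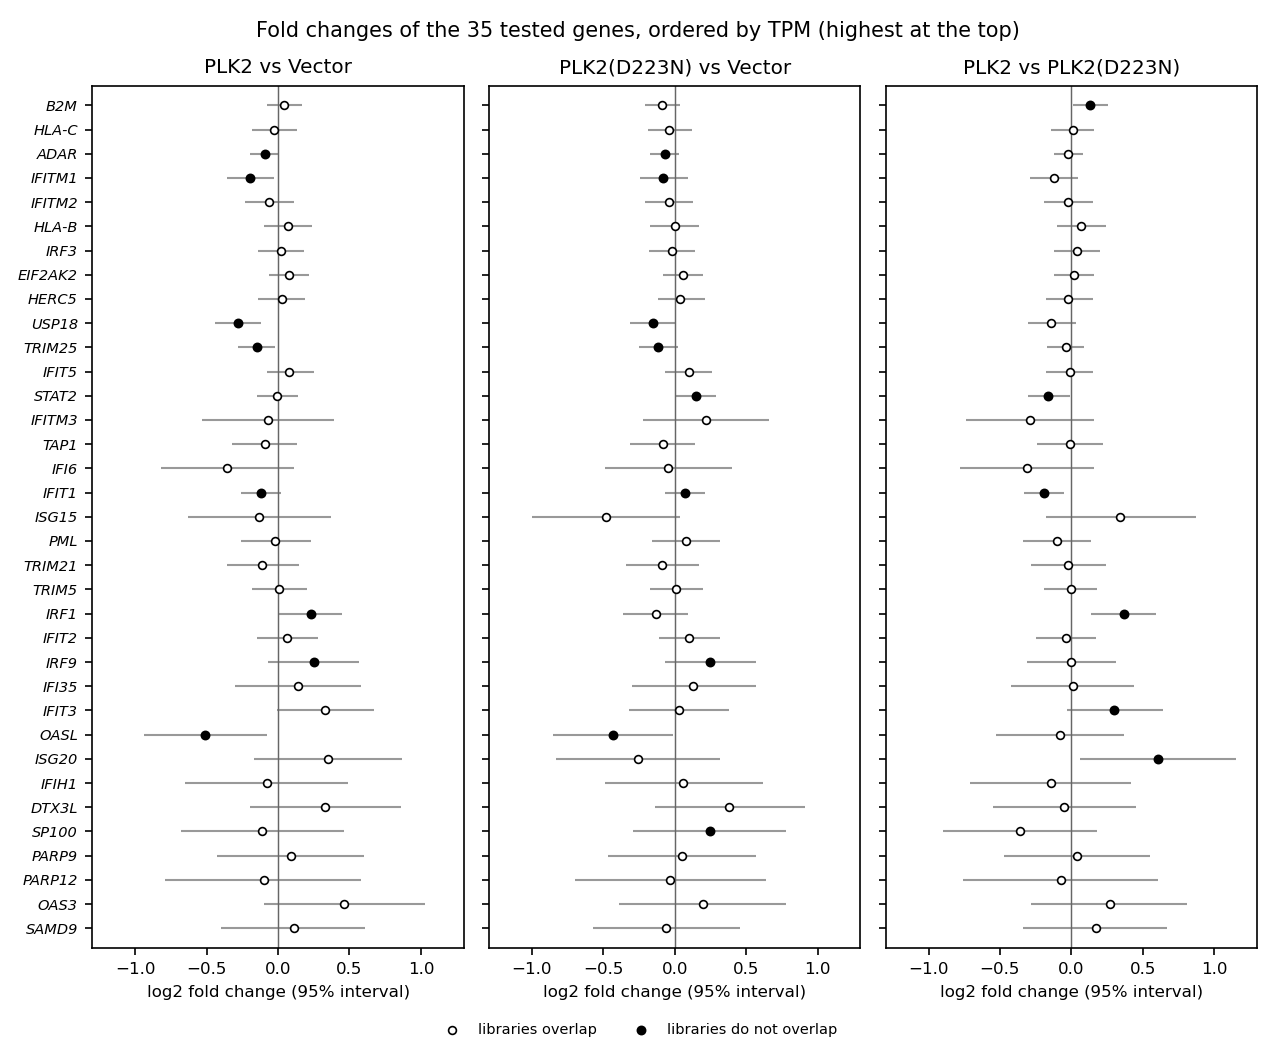
Log2 fold changes of the 35 tested genes with 95% intervals in the 3 comparisons, ordered by TPM with the highest at the top; filled points mark genes whose libraries do not overlap between the groups compared. The points lie between -0.51 and 0.61, and 34 of the 35 intervals in PLK2 vs Vector lie within 1 of 0.

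Antigen presentation gave values close to 0 in this comparison. The log2 fold changes of PLK2 over Vector were 0.04 for B2M, 0.07 for HLA-B, -0.03 for HLA-C and -0.09 for TAP1, and all 4 intervals lay within 0.5 of 0. HLA-C stood at 136, 136 and 132 CPM in PLK2 libraries, at 134, 131 and 136 CPM in PLK2(D223N) libraries and at 156, 123 and 133 CPM in Vector libraries. The Vector libraries held both its highest and its lowest value. HLA-B stood at 32.4, 29 and 32.3 CPM in PLK2 libraries, at 29.7, 29.5 and 30.1 CPM in PLK2(D223N) libraries and at 32.3, 26.0 and 30.8 CPM in Vector libraries, again with the widest spread in Vector.

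PLK2(D223N) vs Vector makes the same comparison for the substituted form. The Vector libraries are the same, so the values of the 2 comparisons are not independent of each other. No gene of the 35 passed the test in DESeq2, against 9 of all genes it tested (0.0696%). None passed in edgeR either, against 3 of 12924 genes (0.0232%). That background was 347 genes (2.66%) without Vector replicate 2, 21 (0.161%) without Vector replicate 1 and 2 without any 1 of the other 7 libraries, and no gene of the list was called in these fits. At an unadjusted p below 0.05 there were 2 of 35 (5.71%), STAT2 higher and OASL lower, against 8.53% of all tested genes. The groups did not overlap in 9 of 35 (25.7%), against 13.9%. Of these, STAT2, IRF9, IFIT1 and SP100 were higher and ADAR, OASL, IFITM1, USP18 and TRIM25 lower. The median log2 fold change was -0.00, against 0.01 over all genes, and the range was -0.48 to 0.38.

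STAT2 stood at 27.9, 29 and 32.5 CPM in PLK2 libraries, at 32.6, 32.9 and 34.1 CPM in PLK2(D223N) libraries and at 29.4, 30.6 and 29.8 CPM in Vector libraries. The PLK2(D223N) libraries lay above the other 6, with a log2 fold change of 0.15 (SE 0.07, edgeR adjusted p = 0.574) over Vector. ISG15 gave -0.48 (SE 0.24, 95% interval -1.0 to 0.04, edgeR adjusted p = 0.574), the lowest value with all 9 libraries. It was -0.29 without Vector replicate 1, where OASL at -0.43 lay lower, -0.29 without PLK2(D223N) replicate 2 and -0.65 without PLK2(D223N) replicate 3. It stood at 2.28, 1.54 and 1.76 CPM in PLK2 libraries, at 1.55, 1.05 and 1.78 CPM in PLK2(D223N) libraries and at 2.50, 1.66 and 1.91 CPM in Vector libraries. All groups of ISG15 overlapped, and they rest on 88, 71 and 97 summed counts. The highest value was that of DTX3L, 0.38 (SE 0.25, edgeR adjusted p = 0.607), which gave 0.33 in PLK2 vs Vector, and the lowest of its Vector values, 1.19 CPM, came from replicate 1.

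PLK2 vs PLK2(D223N) sets the kinase beside its substituted form. The Vector libraries enter it only through the shared filter on low counts, the scaling and the estimate of spread. No gene of the 35 passed the test in DESeq2. Outside the list it called 27 of the 10201 tested genes with a promoter window but no ISRE letters. None of the 35 passed in edgeR either, against 21 of 12924 genes (0.162%). That background was 317 genes (2.43%) without Vector replicate 1, 54 (0.414%) without Vector replicate 2 and 9 to 18 without any 1 of the other 7 libraries, and no gene of the list was called in these fits. At an unadjusted p below 0.05 there were 5 of 35 (14.3%), with IRF1, ISG20 and B2M higher and IFIT1 and STAT2 lower, against 6.04% of all tested genes. The groups did not overlap in 6 of 35 (17.1%), against 20.5%. The median log2 fold change was -0.02, against -0.00 over all genes. The transgene RNA differed between these groups too, as given above, and its part in these values cannot be told apart from that of the substitution.

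IRF1 (chr5:132481609-132490798, minus strand), a transcription factor that acts on class I genes and on basal antiviral genes, had the smallest p of the list here. It stood at 10.5, 9.29 and 8.84 CPM in PLK2 libraries, at 7.45, 7.41 and 7.38 CPM in PLK2(D223N) libraries and at 8.74, 8.32 and 7.31 CPM in Vector libraries. The PLK2 libraries lay above the other 6. The log2 fold change was 0.37 (SE 0.10, 95% interval 0.14 to 0.59, edgeR unadjusted p = 0.00315, adjusted p = 0.395) over PLK2(D223N) and 0.23 (SE 0.10, edgeR adjusted p = 0.285) over Vector. B2M (chr15:44711487-44718877, plus strand) stood at 166, 183 and 160 CPM in PLK2 libraries, at 158, 154 and 153 CPM in PLK2(D223N) libraries and at 170, 158 and 166 CPM in Vector libraries. PLK2 lay above PLK2(D223N) without overlap, with a log2 fold change of 0.13 (SE 0.06, edgeR adjusted p = 0.787), and overlapped with Vector. Without PLK2 replicate 2, the highest B2M library, this value was 0.07.

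Fitted to the 6 PLK2 and PLK2(D223N) libraries alone, both genes were called, IRF1 at 0.37 (edgeR adjusted p = 0.0375) and B2M at 0.13 (edgeR adjusted p = 0.0286). That fit leaves the wide Vector spread out and called 502 of 12810 genes (3.92%), against 21 of 12924 (0.162%) in the fit to all 9 libraries. The 2 of 35 (5.71%) stand beside that share of 3.92%. HLA-B, HLA-C and TAP1 were not called in it.

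ISG20 (chr15:88636153-88656483, plus strand) gave the largest fold change of the comparison. It stood at 1.33, 1.22 and 1.32 CPM in PLK2 libraries, at 0.869, 0.802 and 0.860 CPM in PLK2(D223N) libraries and at 1.31, 0.763 and 0.922 CPM in Vector libraries, which are 61, 41 and 48 summed counts. PLK2 lay above PLK2(D223N) without overlap, with a log2 fold change of 0.61 (SE 0.25, 95% interval 0.06 to 1.15, edgeR adjusted p = 0.779), and 1 Vector library lay among the PLK2 values. IFIT1, which binds RNA that lacks the cap methylation of the host, stood at 21.3, 21.7 and 19.8 CPM in PLK2 libraries, at 23.8, 23.6 and 24.3 CPM in PLK2(D223N) libraries and at 22.5, 22.4 and 23.3 CPM in Vector libraries. The 3 groups of IFIT1 did not overlap at all, with Vector in between. Its log2 fold change of PLK2 over PLK2(D223N) was -0.19 (SE 0.07, edgeR adjusted p = 0.636), while its neighbour on chromosome 10, IFIT3, gave 0.30 (SE 0.16, edgeR adjusted p = 0.865).

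**Figure D4:**
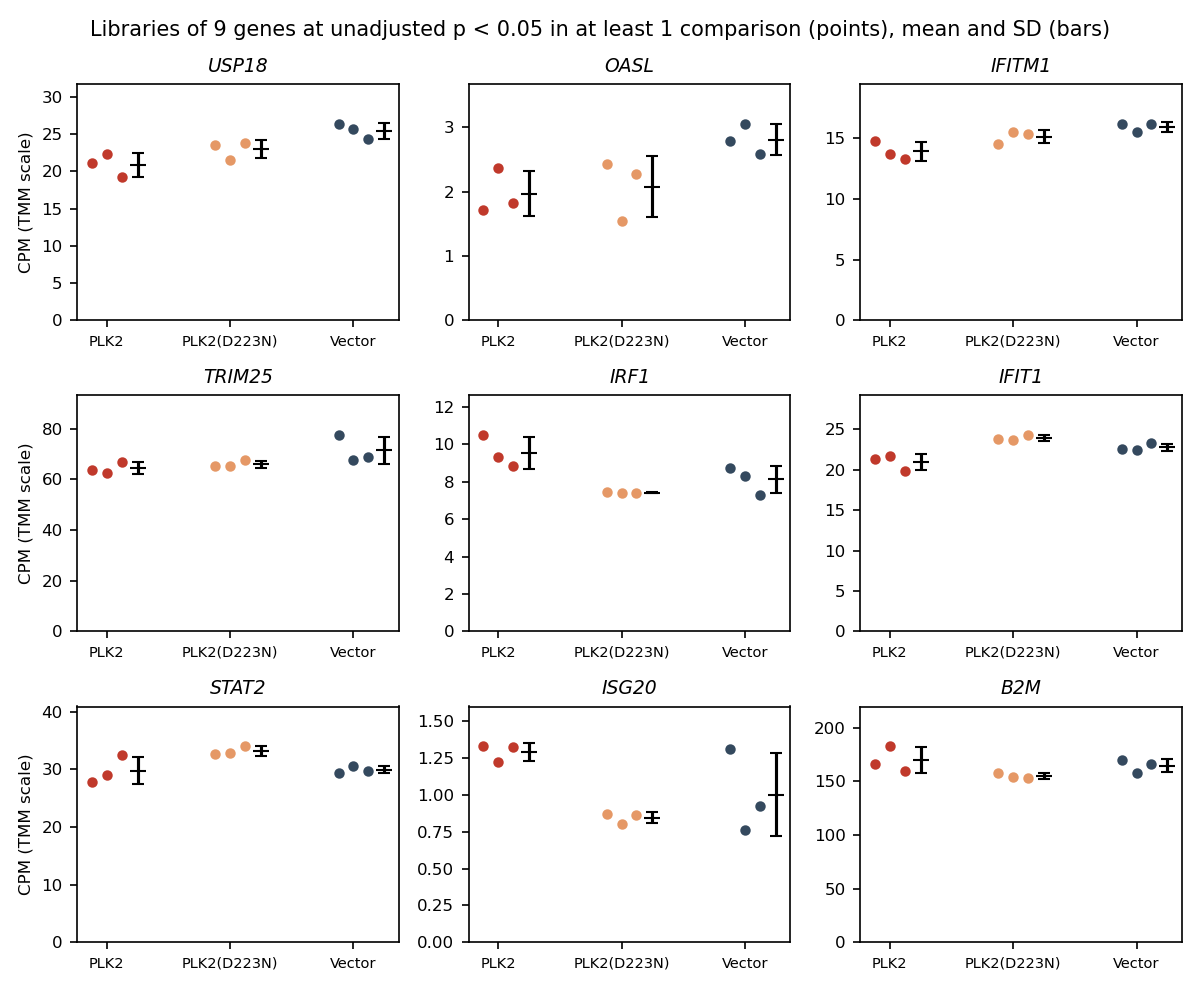
CPM on the TMM scale in each library (points) with the mean and SD of 3 libraries (bars) for the 9 genes with an unadjusted p below 0.05 in at least 1 comparison; none passed the adjusted test. USP18 lies at 19.2 to 22.4 CPM in PLK2 libraries and 24.3 to 26.4 CPM in Vector libraries, and IRF1 at 8.84 to 10.5 CPM in PLK2 libraries and 7.38 to 7.45 CPM in PLK2(D223N) libraries.

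The other 9 genes were too low to test and are given as counts summed over the 3 libraries of a group. IRF7 had 18 counts in PLK2, 22 in PLK2(D223N) and 20 in Vector libraries, and IFI27 had 26, 19 and 17 in the same groups. IFI44 had 17 counts in PLK2, 7 in PLK2(D223N) and 10 in Vector libraries. The 4 lowest, BST2, XAF1, PARP14 and OAS2, had at most 4 counts summed over any group. In any library they had at most 3, which is the floor of 3 counts that a library at 0 allows. Decreases and small increases in these 4 genes were not detectable at this depth. A large rise in counts would have been visible, and none was seen. The ratio of PLK2 to Vector had an exact counting interval of 0.0439 to 3.39 for PARP14 and 0.00823 to 9.32 for XAF1. It was wider for the others, at 0.0124 to 76.2 for OAS2 and 0.234 to 153 for BST2.

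DHX58 and MX1 were the pair among these 9 whose ratios had a counting interval that left out 1. DHX58 had 14 counts in PLK2, 8 in PLK2(D223N) and 3 in Vector libraries. The ratio of PLK2 to Vector, corrected for library size, was 4.53 with an exact 95% interval of 1.26 to 24.6, and that of PLK2(D223N) to Vector was 2.59 (0.622 to 15.2). By library it had 7, 2 and 5 counts in PLK2, 3, 4 and 1 in PLK2(D223N) and 2, 1 and 0 in Vector, so PLK2 and Vector overlapped. MX1 had 7 counts in PLK2, 21 in PLK2(D223N) and 8 in Vector libraries. The ratio of PLK2 to PLK2(D223N) was 0.333 (0.12 to 0.813) and that of PLK2(D223N) to Vector 2.55 (1.08 to 6.66). Its counts by library were 4, 1 and 2 in PLK2, 7, 10 and 4 in PLK2(D223N) and 2, 3 and 3 in Vector. These intervals cover counting error only and not the spread between cultures, and with no filter on low counts edgeR called none of the 9 genes in any comparison. Over all genes that fit called 136 (0.797%) in PLK2 vs Vector and 5 (0.0293%) in PLK2(D223N) vs Vector.

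The rest of the pathway was also examined, upstream and downstream of the list. Lists of interferons, receptors and kinases, nucleic acid sensors, negative regulators, other interferon-stimulated genes and other class I and class II presentation genes hold 116 further genes with a row, of which 72 were tested. Neither edgeR nor DESeq2 called any of them in any comparison. In edgeR the shares called over all tested genes were 0.511%, 0.0232% and 0.162% in PLK2 vs Vector, PLK2(D223N) vs Vector and PLK2 vs PLK2(D223N). At an unadjusted p below 0.05 edgeR gave 11 of 72 (15.3%) in PLK2 vs Vector, 3 (4.17%) in PLK2(D223N) vs Vector and 3 (4.17%) in PLK2 vs PLK2(D223N), against 16.4%, 8.53% and 6.04% of all tested genes. Their median log2 fold changes were -0.05, -0.01 and -0.03 in the same order. Of 22 interferon genes 7 have a row and none could be tested, with IFNB1, the interferon most cells make first, at 9 counts in PLK2, 3 in PLK2(D223N) and 3 in Vector libraries. The ratio of PLK2 to Vector for IFNB1 was 2.91 with an exact 95% interval of 0.727 to 16.7. The receptor chains IFNAR1 and IFNAR2 averaged 41.5 and 22.5 TPM and their kinases JAK1 and TYK2 64.1 and 20.7 TPM, and none of these 11 tested genes of receptors and kinases passed. The DNA sensor CGAS averaged 0.143 TPM and its adaptor STING1 0.312 TPM. CGAS had 17 counts in PLK2, 5 in PLK2(D223N) and 11 in Vector libraries, and STING1 had 19, 8 and 14 in the same groups. The ratio of PLK2 to PLK2(D223N) was 3.4 (1.2 to 11.8) for CGAS and 2.37 (0.992 to 6.27) for STING1. TLR9, an endosomal receptor for DNA, had 1 count in PLK2, 3 in PLK2(D223N) and 10 in Vector libraries, with a ratio of PLK2 to Vector of 0.0971 (0.00224 to 0.682). LGALS9, which encodes a galectin, had 12 counts in PLK2, 16 in PLK2(D223N) and 5 in Vector libraries, with a ratio of PLK2(D223N) to Vector of 3.11 (1.09 to 10.8). CGAS, TLR9 and LGALS9 were the untested genes of these lists with an interval that left out 1, and the intervals cover counting error only and are not adjusted for the number of genes.

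None of the genes of these lists with the smallest p in PLK2 vs Vector passed the test. The receptor chain IFNAR2 gave -0.16 (SE 0.06, edgeR adjusted p = 0.233). Among sensors and their helpers, RNF135, a ligase for RIG-I, gave -0.24 (edgeR adjusted p = 0.213) and TRIM56, a ligase with antiviral activity, 0.21 (edgeR adjusted p = 0.246). The cytidine deaminase APOBEC3C gave -0.19 (edgeR adjusted p = 0.213) and its relative APOBEC3B 0.20 (edgeR adjusted p = 0.263). SAMHD1, which hydrolyses deoxynucleotides, gave -0.14 (edgeR adjusted p = 0.235), and PDIA3 and CALR, chaperones of class I folding, -0.13 and -0.14 (edgeR adjusted p = 0.236 and 0.305). In the class II lists CIITA, the master regulator of class II genes, gave -0.36 (SE 0.14, edgeR adjusted p = 0.235) at 0.603 TPM and HLA-DMA 0.67 (SE 0.28, edgeR adjusted p = 0.286) at 1.91 TPM.

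Genes outside the list that carry ISRE letters in a promoter window gave a wider view of the same element. In PLK2 vs Vector 3 of 383 such tested genes (0.783%) were called, BTN3A3, GOLGA6B and NPR3, all higher. Of those with a window but without the letters 53 of 10201 (0.52%) were called, 49 higher and 4 lower. An unadjusted p below 0.05 was found for 59 (15.4%) with the letters and 16.4% without. DESeq2 called 6 of the 383 with the letters and 115 of the 10201 without. The median log2 fold change of those with the letters was 0.03, with 217 of 383 (56.7%) above 0, against -0.01 and 48.5% in the others. In PLK2(D223N) vs Vector edgeR and DESeq2 called 0 of the 383, and 30 (7.83%) had an unadjusted p below 0.05 in edgeR, against 8.41% of those without. There 58.5% were above 0, against 52.2% in the others, of which edgeR called 3 (0.0294%) and DESeq2 called 7. In PLK2 vs PLK2(D223N) edgeR called 0 of the 383 and DESeq2 called 1, and 20 (5.22%) had an unadjusted p below 0.05 in edgeR, against 5.73% of those without. There 52.7% were above 0, against 48.3% in the others, of which edgeR called 16 (0.157%) and DESeq2 called 27. The shifts are small, and genes that share a promoter element are not replicates, so no test was made of them.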

How the data were processed

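RNA from 9 HEK293T cultures was sequenced after oligo(dT) selection, per the labels' protocols. The submitters' processing notes name GRCh38.p13, RSEM 1.3.1, DESeq2 1.4.5 and Bowtie2, with no role for each; annotation and strand setting are not given there. The table holds the estimated counts per gene that the authors deposited, 87.1% to 88.5% of which lay within 0.005 of a whole number in a library, and per the file headers also TPM, made by the authors and used here for levels between genes and for 1 alternative. A further 18 columns of single libraries, and 12 of group means, were not used. The title of Vector replicate 1 is misspelt, and its column was found from the number.

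Estimated counts were rounded. Genes were kept by filterByExpr (12924 of 17083), scaled by TMM and fitted over all 9 libraries with group as the only term by edgeR 4.0.16 (glmQLFit and glmQLFTest, robust), with Benjamini-Hochberg adjustment over all tested genes. CPM are on the TMM scale. A gene is called at an adjusted p below 0.05. Ratios of summed counts have exact conditional binomial intervals, which cover counting error only. The software was Python 3.11.15 and R 4.3.3 with DESeq2 1.42.0 and limma 3.58.1. Promoter windows came from RefSeq (GRCh38.p14) and gene positions from GENCODE release 29.

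The members and lists were chosen with earlier results of these data known. Values in every library are given for the 4 tested genes with the smallest p in each comparison, the 6 with the highest TPM, and genes without overlap whose log2 fold change reached 0.5. Other members are given by levels, counts or fold changes. IRF9, OAS3 and DTX3L, and the 3 genes with ISRE letters outside the list, were picked after their values were seen. Of the other lists, up to 2 genes with the smallest p in PLK2 vs Vector are named, with RIG-I, CGAS and STING1; some genes under this rule are not reported here. Receptor chains, kinases, IFNB1, TLR9, LGALS9, UBA7 and UBE2L6 were added after their values were seen.

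Alternatives were scaling by DESeq2 size factors or upper quartiles, the Wald test of DESeq2, a minimum of 1 count as the whole filter, a stricter filter, the replicate number as a block, a fit restricted to the 6 libraries of a comparison, leaving out PLK2, limma on log2(TPM + 1), the removal of GC and length trends (loess, span 0.3, 12841 genes with both), and each library left out in turn. The procedure was tested on data simulated with the fitted means and spreads, for PLK2 vs Vector. Of genes changed by a log2 of 0.5, 1 and 2 it called 74.6%, 92.4% and 100%, and 4.86% of its calls were false. Each gene had the same spread in all groups there, so the wider Vector spread was not reproduced. The changed genes were drawn at random from all tested genes, so the rates are not those of this list or of its genes at low counts.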

Additional observations from a re-analysis of the deposited data

How the results depend on the processing

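The 3 counts of called genes stayed at 0 under 19 alternatives each, with exceptions in 2 of them. PLK2 vs Vector without Vector replicate 2 called 1 gene, USP18 (0 to 1 over the 9 libraries left out in turn), and PLK2 vs PLK2(D223N) fitted to 6 libraries called 2, IRF1 and B2M. Over the libraries left out, the other counts ran from 0 to 0. In PLK2 vs Vector the share called over all genes ran from 0.1% without PLK2 replicate 2 to 12.7% without Vector replicate 2. It was 0.158% with limma on TPM and 2.92% with GC and length trends removed. A count of 0 among 35 genes is near most of these shares. Same-numbered libraries did not deviate together (correlations of -0.11 to 0.13), so no pairing by number was seen. Such correlations cannot show whether same-numbered cultures were handled together. With the replicate number as a block 0 genes of the list were called in each comparison. Over all genes that fit called 76 (0.588%) in PLK2 vs Vector and 4 (0.031%) in PLK2(D223N) vs Vector. The median log2 fold change of the list was -0.04 in PLK2 vs Vector with GC and length trends removed. With limma on TPM, which left 28 genes, it was 0.04 in PLK2(D223N) vs Vector and -0.07 in PLK2 vs PLK2(D223N). Over libraries left out it ran from -0.02 to 0.01 in PLK2 vs Vector, -0.01 to 0.04 in PLK2(D223N) vs Vector and -0.03 to 0.01 in PLK2 vs PLK2(D223N). The cause of these moves was not tested.

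Of 795 fold changes of single genes under alternatives, 762 kept their sign and side of the threshold, 3 became called and 30, all uncalled, changed sign. With GC and length trends removed, PLK2 vs Vector gave -0.06 for B2M, 0.02 for HLA-C and 0.02 for STAT2, PLK2(D223N) vs Vector 0.00 for IFITM2 and 0.03 for HLA-B, and PLK2 vs PLK2(D223N) 0.00 for ADAR. With limma, PLK2(D223N) vs Vector gave 0.02 for HLA-C and 0.05 for HLA-B, and PLK2 vs PLK2(D223N) -0.04 for HLA-C. With the replicate block HLA-B was 0.00 in PLK2(D223N) vs Vector. Leaving out libraries gave, in PLK2 vs Vector, -0.02 to 0.08 for B2M, -0.10 to 0.07 for HLA-C, -0.11 to 0.01 for IFITM2, -0.02 to 0.13 for HLA-B, -0.07 to 0.04 for STAT2 and -0.31 to 0.05 for ISG15. In PLK2(D223N) vs Vector it gave -0.11 to 0.06 for HLA-C, -0.09 to 0.03 for IFITM2 and -0.09 to 0.06 for HLA-B. In PLK2 vs PLK2(D223N) it gave 0.00 to 0.03 for HLA-C, -0.04 to 0.01 for ADAR, -0.07 to 0.03 for IFITM2 and -0.26 to 0.04 for OASL. The 6 highest genes were the same on log2(TPM + 0.1). Depth limits the 9 genes that were too low to test.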
